A study of Mus musculus with 12 samples.

Results

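γδ T cells and CD4+ T cells of wild-type mice fed a methionine- and choline-deficient (MCD) diet were compared across all genes by RNA sequencing. The comparison was chosen from the sample labels and takes 4 of the 12 libraries in the table, 2 of γδ T cells (replicates 2 and 4) and 2 of CD4+ T cells (replicates 1 and 3). Mice were wild-type C57BL/6 or γδTCR-/-, entered the diets at 7 weeks of age and ate the control or the MCD diet for 6 weeks. Cells were sorted by flow cytometry into lysis buffer. The control-diet libraries used beside the comparison were γδ T cells (replicates 6 and 7) and CD4+ T cells (replicates 2 and 3) of wild-type mice. The other 4 libraries, CD4+ T cells of γδTCR-/- mice on either diet, entered only the choice of genes tested, the scaling and the estimate of the spread. The title of γδ replicate 2 also carries the code of CD4+ replicate 1 of the MCD diet, and the labels do not say whether these libraries share a mouse or how that code applies. The labels name no tissue or sex, and they do not say that replicates were separate mice, so p-values measure only the spread between these samples.

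γδ T cells recognise antigen through a receptor of a γ and a δ chain, and many leave the thymus already set to make interleukin-17 or interferon-γ. CD4+ T cells see peptides on class II molecules through an αβ receptor helped by CD4, and take up helper or regulatory roles after activation. The MCD diet causes fat storage, oxidative stress and inflammation in the mouse liver, without the obesity that accompanies most human fatty liver disease. In that liver, γδ T cells are known as a source of interleukin-17.

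Total counts were 18466126 and 19498448 in the γδ and 17035638 and 17093398 in the CD4+ libraries of the MCD diet. Genes of the mitochondrial genome took 56.8% and 53.8% of the γδ counts and 43.9% and 40.8% of the CD4+ counts. With non-mitochondrial counts thinned to 7977220 in every library, 8968 and 9985 genes had at least 10 counts in the γδ MCD libraries. The CD4+ MCD libraries then had 12844 and 12652 such genes and the γδ control libraries 11764 and 11515. The γδ MCD libraries also lay further apart from each other than other replicate pairs. Over the genes tested, the Pearson correlation of log2(CPM + 1) was 0.754 between them and 0.909 between the CD4+ MCD libraries. With CD4+ MCD replicates 1 and 3 it was 0.777 and 0.773 for γδ MCD replicate 4, above that with its own replicate. For γδ MCD replicate 2 it was 0.747 and 0.741. Of 2940 genes whose mean reached 50 CPM in γδ MCD libraries, 239 (8.13%) differed more than 10-fold between the pair, against 0 of 2250 in CD4+ MCD, 5 of 2505 in γδ control and 1 of 2264 in CD4+ control libraries. CPM here are counts relative to the library total and scaled by the trimmed mean of M-values (TMM), and each set of values below gives replicate 2 then 4 for γδ and replicate 1 then 3 for CD4+ T cells. A floor of 3 counts was 0.248 and 0.202 CPM in the γδ and 0.147 and 0.139 CPM in the CD4+ libraries.

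On the MCD diet, 430 of 16218 genes (2.65%) differed between γδ and CD4+ T cells at an adjusted p below 0.05 in edgeR's quasi-likelihood test. Of these, 239 (1.47%) were higher and 191 (1.18%) lower in γδ T cells. "Called" below means past this threshold. Every count of list members called higher or lower is to be read against these shares, 1.47% and 1.18% of all genes. The genes higher in γδ T cells included receptor genes of the γδ lineage, genes of the type 17 programme, genes of the NRF2 antioxidant response, and genes typical of macrophages, monocytes and antigen-presenting cells. Those lower in γδ T cells included Cd4, Trac and a set of regulatory T cell genes. The median log2 fold change over all genes was -0.30, and 3551 genes had an unadjusted p below 0.05. With library totals in place of TMM, 748 genes were called, 114 higher and 634 lower, and the median of all genes was -0.97, so list medians are read against that of all genes.

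The number of calls rested on the libraries that shared the estimate of the spread. With only the 8 wild-type libraries 130 genes were called, 115 higher and 15 lower, of which 120 were among the 430. With only the 4 MCD libraries 9 were called, all among the 430: Cd163l1, Cd4, Cd74, Csf1r, Fcer1g, Il1rn, Itgam, Lyz2 and Ptafr. Without CD4+ replicate 1 or 3 there were 110 and 108 calls, and without γδ replicate 2 or 4 there were 1195 and 2386. Leaving out a library leaves 1 in its group, so the difference within that pair no longer enters the spread. A call kept without a γδ library is therefore weak support. DESeq2 called 2853 genes and limma-voom 787. Calls of lower genes rested on few γδ reads: 44 of the 191 had 0 counts in both γδ libraries and 114 (59.7%) had fewer than 10 counts in each, against 30.4% of all genes tested. Genes called higher had fewer than 10 counts in both CD4+ libraries in 40 of 239 cases (16.7%), against 12.6% of all genes. The part that the smaller number of detected genes has in the lower calls was not tested, and thinning to equal totals gave 449 calls, 250 higher and 199 lower.

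**Figure D1:**
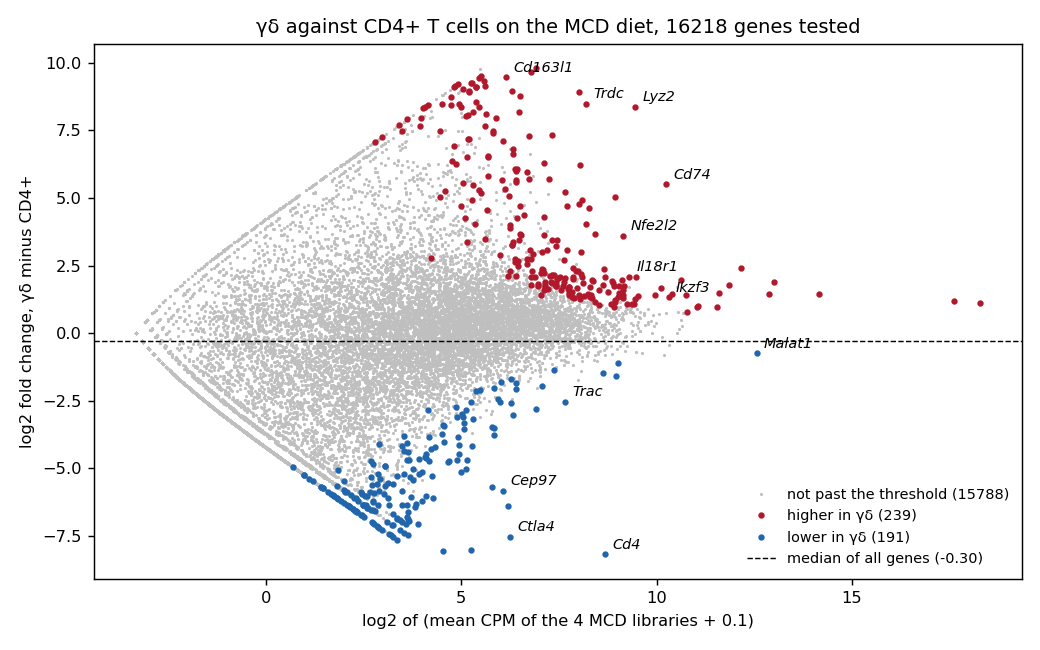
Log2 fold change of γδ against CD4+ T cells on the MCD diet for each gene tested, against the log2 of its mean CPM over the 4 libraries plus 0.1. Red points are the 239 genes called higher and blue points the 191 called lower, with 12 genes labelled and the dashed line at the median of all genes (-0.30). Many lower calls lie along the lower edge of the cloud, where γδ counts are 0 or few, while higher calls extend to well-expressed genes such as Lyz2 and Cd74.

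The receptor genes check the labels and are not a finding. Trdc, which encodes the constant part of the δ chain (chromosome 14, 54142851 to 54148868, GRCm38), read 623 and 538 CPM in the γδ libraries and 2.80 and 0.231 CPM in the CD4+ libraries. The difference was 383-fold (log2 fold change 8.49, SE 1.09, adjusted p = 0.00181). Cd4 (chromosome 6, 124864692 to 124888221) read 4.29 and 1.21 CPM in the γδ libraries and 880.3 and 764 CPM in the CD4+ libraries, 299-fold lower in γδ T cells (log2 fold change -8.19, SE 0.53, adjusted p = 9.5e-06). The libraries of each cell type lay far apart from those of the other in both genes. Of 5 γδ constant genes measured, 4 were called higher. Tcrg-C1 read 673 and 519 CPM against 35.5 and 12.4 CPM (γδ first), Tcrg-C2 636 and 472 CPM against 43.2 and 23.1 CPM and Tcrg-C4 410.1 and 211 CPM against 41.7 and 24.6 CPM (adjusted p = 0.00637 to 0.0347). The γ constant genes are near-identical copies, so how reads were divided among them is uncertain, and the call of Tcrg-C1 was lost without CD4+ replicate 3 (adjusted p = 0.0907).

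Among αβ constant genes, Trac, for the α chain, read 30.1 and 87.2 CPM in the γδ libraries and 344 and 338 CPM in the CD4+ libraries and was 5.82-fold lower in γδ T cells (adjusted p = 0.00637). Trbc1 read 103 and 173 CPM against 131 and 86.5 CPM and Trbc2 16.1 and 143 CPM against 183 and 151 CPM, and neither was called (adjusted p = 0.611 and 0.324). In γδ replicate 4, Trbc1 lay above both CD4+ libraries and Trbc2 just below both. Cd3e, shared by both receptors, read 1045 and 976 CPM against 638 and 621 CPM and was not called (adjusted p = 0.0828). The co-receptor gene Cd8a read 80.2 and 51.7 CPM against 6.39 and 11.2 CPM (adjusted p = 0.117). The 4 γ and δ variable segments that were looked up after their values were seen were not called: Trgv2 read 83.1 and 51.5 CPM against 5.16 and 1.66 CPM, Tcrg-V4 19.8 and 34.1 CPM against 1.77 and 1.89 CPM, Tcrg-V6 1.24 and 15.8 CPM against 0.0491 and 0 CPM and Trdv4 5.53 and 14.5 CPM against 0 and 0.0462 CPM (adjusted p = 0.081 to 0.151). All 4 were higher in each γδ library than in either CD4+ library, as were 2353 of all 16218 genes.

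**Figure D2:**
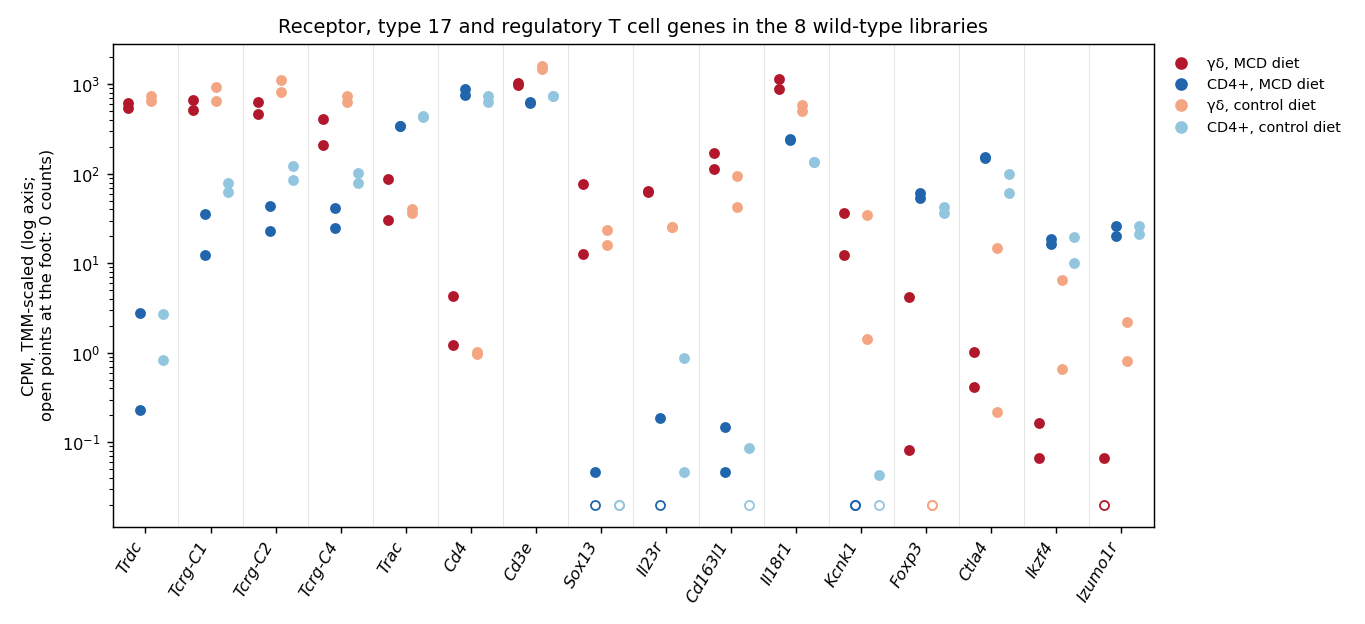
TMM-scaled CPM (log axis) of 16 receptor, type 17 and regulatory T cell genes in the 8 wild-type libraries, 1 point per library, with open points at the foot for 0 counts. γδ T cells of both diets sit above CD4+ T cells in Trdc, Cd163l1 and Il18r1, and CD4+ T cells sit above γδ T cells in Cd4, Foxp3 and Ctla4.

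Proximal signalling genes differed in a few members. Of 29 measured genes of T cell receptor signalling, 2 were called higher, 1 lower, and the median log2 fold change was 0.29. With library totals 2 were higher and 4 lower and that median was -0.54, against -0.97 over all genes. Lat, the adaptor that links the receptor to downstream pathways, read 20.1 and 23.6 CPM in the γδ libraries and 154 and 110.5 CPM in the CD4+ libraries, 6.07-fold lower in γδ T cells (adjusted p = 0.0212). Syk, a kinase related to ZAP-70, read 42 and 80.5 CPM against 2.51 and 1.99 CPM (γδ first; 27.3-fold higher, adjusted p = 0.0284). Themis2, a homologue of the T cell gene Themis that is used mainly by B cells and myeloid cells, read 135 and 124 CPM against 4.28 and 0.647 CPM (52.6-fold, adjusted p = 0.0224). Fcer1g, the Fc receptor γ chain that can replace CD3ζ in γδ receptors and is also abundant in myeloid and NK cells, read 370.1 and 224 CPM against 5.80 and 5.31 CPM (53.5-fold, adjusted p = 0.0145). Rasgrp1, Lcp2 and Ptpn22 were not called (adjusted p = 0.117 to 0.553). The calls of Syk (either), Lat (replicate 1) and Themis2 (replicate 3) were lost without those CD4+ libraries (adjusted p = 0.0732 to 0.193).

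Lineage factors differed in the same selective way. Of 25 factors linked to γδ and innate-like T cells, 3 were called higher and 0 lower, with a median of 0.91, or 3 higher and 2 lower with library totals. Sox13, a factor of the interleukin-17-making γδ lineage, read 12.7 and 77 CPM in the γδ libraries and 0 and 0.0462 CPM in the CD4+ libraries, a ratio of 2022 (95% counting interval 362 to 79940), with an edgeR adjusted p of 0.0234. Zeb2, a transcription factor of terminal effector differentiation that myeloid cells also use, read 631 and 362 CPM against 18.1 and 18.1 CPM (27.4-fold, adjusted p = 0.000663). Rora, Ikzf2, Tcf12 and Maf were not called (adjusted p = 0.123 to 0.612). Of 14 factors of CD4+ T cells, 1 was called higher in γδ T cells and 0 lower, whereas with library totals 0 were higher and 4 lower. The called factor was Ikzf3, for Aiolos, at 2108 and 1527 CPM against 808 and 628 CPM (2.53-fold, adjusted p = 0.0104). Its call was lost with library totals (adjusted p = 0.13) and without CD4+ replicate 3 (0.0585). Satb1, Tcf7 and Ets1 were not called (adjusted p = 0.125 to 1).

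The type 17 programme was the T cell programme with the most called members after cytokine receptors. Of 33 measured members 6 were called higher and 0 lower, against 1.47% and 1.18% of all genes. The median log2 fold change was 2.09 on the MCD diet. With library totals 5 were higher, 1 was lower and the median was 1.29.

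Il18r1, which encodes the receptor chain for interleukin-18 (chromosome 1, 40465552 to 40500854), read 1154 and 893 CPM in the γδ libraries and 242 and 237 CPM in the CD4+ libraries. The difference was 4.27-fold (log2 fold change 2.09, SE 0.25, adjusted p = 0.00113). Cd163l1, for the scavenger receptor SCART1 found on interleukin-17-making γδ T cells (chromosome 7, 140218267 to 140231145), read 112 and 169 CPM in the γδ libraries and 0.147 and 0.0462 CPM in the CD4+ libraries. It was 1453-fold higher (log2 fold change 9.48, SE 1.36, adjusted p = 0.00407) and stayed called under every alternative run. Il23r, for the interleukin-23 receptor (chromosome 6, 67422932 to 67491855), read 65 and 62.1 CPM in the γδ libraries and 0 and 0.185 CPM in the CD4+ libraries, 688-fold higher (adjusted p = 0.0284). Kcnk1, a potassium channel gene, read 36.2 and 12.5 CPM in γδ libraries and was at 0 in both CD4+ libraries, at least 170.4-fold higher (adjusted p = 0.0466). In Cd163l1, Il23r, Kcnk1 and Sox13 every γδ library lay above every CD4+ library, as in 2353 of all 16218 genes. For these genes CD4+ libraries held few or no reads. Il23r, Sox13 and Kcnk1 were not called without CD4+ replicate 1 or 3 (adjusted p = 0.0585 to 0.188).

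The effector cytokine itself was uneven. Il17a, looked up after its values were seen, read 1.82 and 40.6 CPM in the γδ libraries and 0 and 0.185 CPM in the CD4+ libraries (adjusted p = 0.116). γδ replicate 4 held most of its reads. Tmem176a, a membrane protein gene of type 17 and myeloid cells, read 264 and 275 CPM against 28.4 and 25.5 CPM (adjusted p = 0.0841), and the receptor genes Il1r1 and Ccr6 read 212 and 53.3 CPM against 0.639 and 8.59 CPM and 34.8 and 12 CPM against 4.91 and 2.17 CPM (adjusted p = 0.164 and 0.287); these were also chosen after their values were seen. Il7r, Stat3 and Il2ra, the most abundant members not called, had adjusted p from 0.0577 to 0.358.

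Of the 6 called members 5 matched the RefSeq promoter table (GRCm38.p6, 250 bases before to 50 after a gene's start). These windows were searched on both strands for AGGTCA, the core element of many nuclear receptor sites, which 16.3% of the 32851 promoters in the table hold. Among the 12867 promoters of tested genes 12.9% held it. The 5 called genes had 7 promoters there, of which 1 held it. A single gene of the 5, Il23r, held it, with 2 matches 229 and 66 bases before the start, the first on the opposite strand. The 250 bases before the Il23r start (chr6:67491856-67492105, minus strand) are shown as the promoter of a called receptor gene, with matches in capitals.
Il23r: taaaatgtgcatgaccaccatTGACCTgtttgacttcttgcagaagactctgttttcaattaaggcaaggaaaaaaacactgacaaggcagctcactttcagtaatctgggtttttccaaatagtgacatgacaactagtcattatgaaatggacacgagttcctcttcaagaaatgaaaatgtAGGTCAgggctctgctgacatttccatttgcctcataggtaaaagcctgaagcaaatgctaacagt
A match is a run of letters in this window and was not measured as a binding site here.

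In the type 1 and cytotoxic programme, 5 of 31 measured members were called higher and 0 lower, with a median of 1.40, and 2 were higher and 1 lower with library totals. Cx3cr1, the receptor for fractalkine on effector lymphocytes and monocytes, read 73.1 and 119.8 CPM in the γδ libraries and 0.0983 and 0.647 CPM in the CD4+ libraries (259-fold higher, adjusted p = 0.0156). The chemokine gene Ccl5 read 201 and 216 CPM against 67.3 and 68.7 CPM (γδ first; 3.07-fold, adjusted p = 0.0272). Srgn, for the granule proteoglycan serglycin, read 649 and 563 CPM against 176 and 180.2 CPM (3.40-fold, adjusted p = 0.0165), and the lysosomal membrane gene Lamp1 309 and 195 CPM against 51 and 65.7 CPM (4.32-fold, adjusted p = 0.0197). The fifth was Zeb2. Ccl5, Srgn and Lamp1 were not called with library totals (log2 fold change 0.83, 0.96 and 1.29, edgeR adjusted p = 0.0784 to 0.16). The key effector genes of the programme were not among the calls: Gzmb read 104 and 186 CPM against 37.8 and 20 CPM, Ifng 58.2 and 32.6 CPM against 21.8 and 32.4 CPM and Tbx21 66.2 and 20.3 CPM against 26 and 14.6 CPM (adjusted p = 0.117 to 0.599; named after their values were seen). Without CD4+ replicate 1 or 3 the calls of Ccl5, Srgn and Lamp1, and without replicate 1 that of Cx3cr1, were lost (adjusted p = 0.0671 to 0.189).

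Of 28 measured NK receptor and adaptor genes, 4 were called higher and 0 lower, with a median of 1.91, or 3 higher and 1 lower with library totals. Slamf7, a receptor of the SLAM family, read 329.5 and 253 CPM in the γδ libraries and 21.4 and 31.6 CPM in the CD4+ libraries (11-fold, adjusted p = 0.00219). Ncr1, for the NK receptor NKp46, read 5.20 and 25.8 CPM in γδ libraries and was at 0 in both CD4+ libraries, at least 108-fold higher (adjusted p = 0.0234). Tyrobp, for the adaptor DAP12, read 95.2 and 33.5 CPM against 4.67 and 1.80 CPM (19.9-fold, adjusted p = 0.0287). The fourth was Fcer1g. Klrb1c, Klrk1 and Klrc1 read 168 and 34.1 CPM against 57.1 and 34.5 CPM, 125 and 99.7 CPM against 40.9 and 14.3 CPM and 46.1 and 87.4 CPM against 25.5 and 12.4 CPM (adjusted p = 0.0952 to 0.554). The calls of Ncr1 and Tyrobp were lost without CD4+ replicate 1 or 3 (adjusted p = 0.0924 to 0.23).

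Receptors for cytokines held the most calls of any T cell list, with 8 of 43 measured members higher and 0 lower and a median of 0.82, or 4 higher and 1 lower and a median of -0.03 with library totals. Besides Il18r1 and Il23r these were Il2rb, Csf1r, Csf2rb, Tnfrsf1b, Tgfbr1 and Ifngr1. Il2rb, the β chain shared by the interleukin-2 and interleukin-15 receptors, read 1329 and 777 CPM in the γδ libraries and 424 and 397 CPM in the CD4+ libraries (2.57-fold, adjusted p = 0.0305). Tnfrsf1b, for TNF receptor 2, read 281 and 246 CPM against 78.4 and 79.3 CPM (γδ first; 3.34-fold), Tgfbr1 211 and 238 CPM against 40.9 and 45.3 CPM (5.20-fold) and Ifngr1, for interferon-γ receptor 1, 375 and 551 CPM against 159 and 212 CPM (2.49-fold). Csf1r and Csf2rb bind or transmit myeloid growth factors and read 269 and 273 CPM against 2.75 and 4.02 CPM and 359.5 and 63.7 CPM against 1.92 and 0.554 CPM. Il2rb, Tnfrsf1b, Tgfbr1 and Ifngr1 were not called with library totals (log2 fold change 0.54, 0.94, 1.59 and 0.54, edgeR adjusted p = 0.0936 to 0.3). Without CD4+ replicate 1 or 3 the calls of Il2rb, Tnfrsf1b, Tgfbr1 and Ifngr1, and without replicate 3 that of Csf2rb, were lost (adjusted p = 0.0747 to 0.278).

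Chemokine receptors, chemokines and cytokines had few calls. Of 22 chemokine receptors measured, Ccr2 and Cx3cr1 were called higher and 0 were lower. Ccr2, which draws monocytes and some γδ T cells to inflamed tissue, read 633 and 317 CPM in the γδ libraries and 72.6 and 46.1 CPM in the CD4+ libraries (8-fold, adjusted p = 0.0185; 0.0675 without CD4+ replicate 3). Cxcr6, a receptor of liver-resident T cells, read 176 and 127 CPM against 48.7 and 36.4 CPM (adjusted p = 0.0546). Of 16 chemokines 1 was called, Ccl5. Of 36 cytokines 2 were higher and 1 lower, or 2 and 4 with library totals. Il1rn, the interleukin-1 receptor antagonist, read 299 and 337 CPM in the γδ libraries and 1.67 and 2.08 CPM in the CD4+ libraries (169.8-fold, adjusted p = 0.0013), and its call held under every alternative run. Il1b read 34.9 and 109 CPM against 0.0491 and 0.277 CPM (442-fold, adjusted p = 0.0308). Tnfsf8, the ligand of CD30, read 5.37 and 9.61 CPM against 53.9 and 47.2 CPM, 6.75-fold lower in γδ T cells (adjusted p = 0.0466). The calls of Il1b and Tnfsf8 were lost without CD4+ replicate 1 or 3 (adjusted p = 0.0881 to 0.213).

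Adhesion and residency genes had 2 of 34 measured members called higher and 0 lower, against 1.47% and 1.18% of all genes. Itgam, the αM integrin of myeloid and NK cells, read 393 and 642 CPM in the γδ libraries and 7.47 and 6.23 CPM in the CD4+ libraries (75.5-fold, adjusted p = 0.00626), and Cd44, the activation-linked hyaluronan receptor, read 669 and 955 CPM against 244 and 236 CPM (3.39-fold, adjusted p = 0.0272; 0.0949 to 0.102 without CD4+ replicate 1 or 3). The integrin genes Itga4, Itgb2, Itgal and Itgb1 were not called (adjusted p = 0.0795 to 0.704). The median was 0.73. With library totals 1 was higher and 3 lower, with a median of -0.06, and Cd44 was not called (log2 fold change 0.99, edgeR adjusted p = 0.121). No members of the interferon-induced list (33 measured) or the apoptosis and survival list (28 measured) were called, against 1 lower in each with library totals, and the immediate early and NF-kB lists had 1 call each, Atf3 (169.8 and 10.6 CPM against 0 and 0.0462 CPM) and Nlrp3 (5.20 and 36.4 CPM against 0 and 0 CPM), both higher in γδ T cells. Each of these calls was lost without one γδ library, replicate 2 for Atf3 and replicate 4 for Nlrp3, and without either CD4+ library (adjusted p = 0.0644 to 0.23).

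Genes of regulatory T cells were among the named genes that were lower in γδ T cells, with 4 of 21 measured called lower and 1, Il2rb, higher, and the median was 0.00. With library totals 7 were lower and 0 higher. Tnfrsf18 (13.4 and 242 CPM against 17.5 and 36.6 CPM) and Nt5e (145 and 48.1 CPM against 43.5 and 38.8 CPM), also of this list, were not called. Foxp3, the defining factor of regulatory T cells (chromosome X, 7573644 to 7595245), read 0.0825 and 4.17 CPM in the γδ libraries and 53 and 61.7 CPM in the CD4+ libraries, 27-fold lower in γδ T cells (log2 fold change -4.68, SE 1.12, adjusted p = 0.0466). Ctla4, the inhibitory receptor that binds CD80 and CD86 (chromosome 1, 60887000 to 60915832), read 0.413 and 1.01 CPM in the γδ libraries and 149 and 154 CPM in the CD4+ libraries, 213-fold lower (log2 fold change -7.53, SE 1.29, adjusted p = 0.0121). Izumo1r, for folate receptor 4, read 0 and 0.0672 CPM in the γδ libraries and 26 and 20 CPM in the CD4+ libraries, a ratio of 618 (95% counting interval 111 to 24450) for CD4+ over γδ. Ikzf4, for Eos, read 0.165 and 0.0672 CPM in the γδ libraries and 18.5 and 16.6 CPM in the CD4+ libraries, a ratio of 158 (95% counting interval 53.7 to 766). In all 4 genes both CD4+ libraries lay above both γδ libraries, as they did in 5183 of all 16218 genes. The calls of Foxp3 and Ikzf4 were lost without CD4+ replicate 1 or 3, while those of Ctla4 and Izumo1r were kept there. In edgeR with only the wild-type libraries Foxp3, Ikzf4 and Ctla4 were not called (adjusted p = 0.158, 0.1 and 0.0588). None of the 4 was called with only the MCD libraries (adjusted p = 0.0707 to 0.197).

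Naive, follicular helper and checkpoint genes were lower in γδ T cells where they were called. Of 24 naive and central memory genes 2 were lower, or 9 with library totals and 0 in limma-voom. They were Dgka, a kinase that damps diacylglycerol signalling, at 161 and 334 CPM against 686 and 810.5 CPM (γδ first; 3.02-fold lower) and Igfbp4 at 3.38 and 1.88 CPM against 51 and 36.8 CPM (16.7-fold lower). Of 13 follicular helper and type 2 genes 1 was lower, Btla, an inhibitory receptor, at 53.3 and 56.4 CPM against 281 and 139 CPM (3.83-fold lower). Checkpoint genes had 3 of 16 lower, Ctla4, Btla and Cd200, the last at 0 in both γδ libraries and 15.8 and 5.22 CPM in CD4+ libraries. The naive factors Satb1 and Tcf7 were not called. Calls of Dgka and Cd200 (replicate 1 or 3) and of Igfbp4 and Btla (replicate 1) were lost without those CD4+ libraries (adjusted p = 0.0559 to 0.293).

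The antioxidant response was the metabolic group with the most calls. NRF2, encoded by Nfe2l2, is a transcription factor that is released under oxidative stress and drives genes for glutathione supply, iron storage and detoxification. Of 29 measured NRF2 and antioxidant genes, 5 were called higher and 0 lower in γδ T cells, against 1.47% and 1.18% of all genes, with a median of 1.36. With library totals 4 were higher, 0 lower, and the median was 0.55 against -0.97 over all genes. The call lost there was that of Cat (log2 fold change 0.55, edgeR adjusted p = 0.296).

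Nfe2l2 (chromosome 2, 75675513 to 75704641) read 1119.9 and 972 CPM in the γδ libraries and 113 and 57.5 CPM in the CD4+ libraries. It was 12.2-fold higher (log2 fold change 3.61, SE 0.40, adjusted p = 0.000641). Fth1, the heavy chain of the iron store ferritin, read 826 and 519.5 CPM against 147 and 111 CPM (γδ first; 5.21-fold, adjusted p = 0.00219). Sod2, the mitochondrial superoxide dismutase, read 388 and 296 CPM against 57.2 and 47.1 CPM (6.56-fold, adjusted p = 0.00355). In these 3 genes each γδ library exceeded each CD4+ library severalfold, and the calls held without either CD4+ library. With only the 4 MCD libraries all 3 calls were lost (adjusted p = 0.0763, 0.143 and 0.114). Hmox1, for heme oxygenase 1, which is also a macrophage gene, read 65.5 and 80.5 CPM against 0.0983 and 0.693 CPM (185-fold, adjusted p = 0.0359), and the catalase gene Cat 354 and 302 CPM against 106 and 150.2 CPM (2.56-fold, adjusted p = 0.0462). These calls were lost without CD4+ replicate 1 or 3 (adjusted p = 0.0912 to 0.294).

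Over the 29 members 22 log2 fold changes were positive and 7 negative. Sod1, Ftl1, Gpx1 and Gsr read 305 and 159 CPM against 91.5 and 106 CPM, 89.9 and 164 CPM against 39.3 and 47.2 CPM, 92.5 and 167 CPM against 31.5 and 30.2 CPM and 198 and 65.8 CPM against 23.2 and 34.5 CPM and were not called (adjusted p = 0.0683 to 0.148). Among textbook NRF2 targets looked up after their values were seen, the cystine transporter gene Slc7a11 read 119.9 and 139.9 CPM against 0 and 3.42 CPM (adjusted p = 0.0697). Gclm, Txnrd1 and Nqo1 read 27.7 and 30.5 CPM against 15.8 and 22.1 CPM, 52.2 and 31.7 CPM against 27.4 and 19.6 CPM and 0 and 2.69 CPM against 0 and 0.924 CPM (adjusted p = 0.407 to 0.796).

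**Figure D3:**
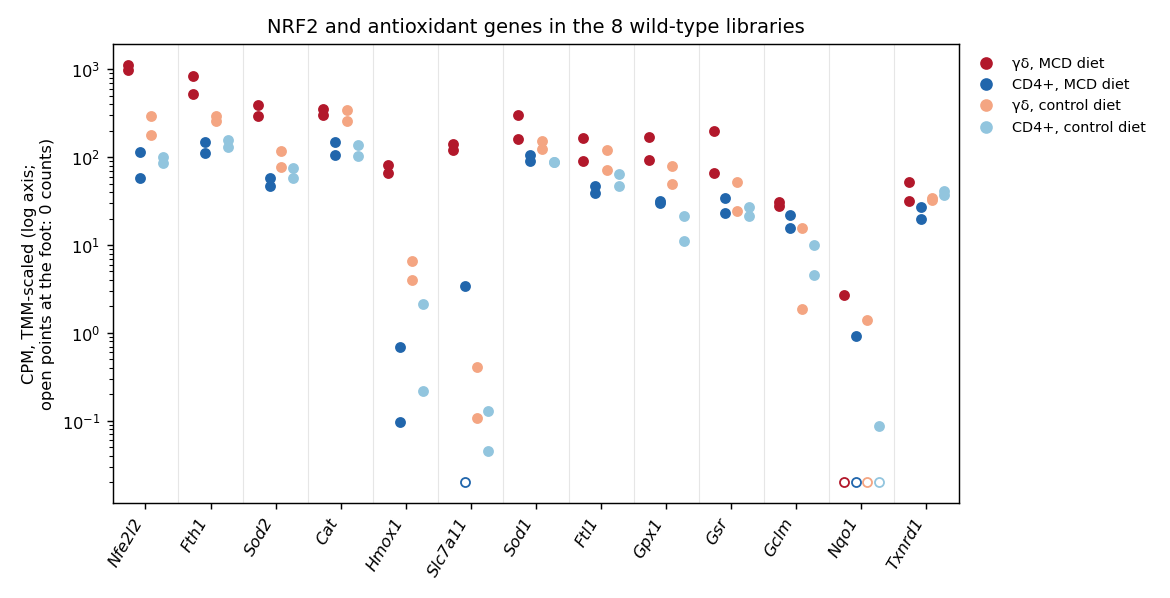
TMM-scaled CPM (log axis) of 13 NRF2 and antioxidant genes in the 8 wild-type libraries, 1 point per library, with open points at the foot for 0 counts. γδ T cells of the MCD diet sit highest for Nfe2l2, Fth1, Sod2, Hmox1 and Slc7a11, while the MCD-diet points of Nqo1 overlap between the cell types.

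The promoters of these genes were searched on both strands for TGACNNNGC, the core of the antioxidant response element, which shares its first 4 letters with the reverse complement of AGGTCA. This core was held by 12.4% of the 32851 promoters and by 14.6% of the 12867 promoters of tested genes. Of the 5 called members 4 matched the table, with 5 promoters. A single gene, Nfe2l2, held the core once, 240 bases before its start. The 250 bases before the Nfe2l2 start (chr2:75704664-75704913, minus strand) are shown as the promoter of the gene with the smallest adjusted p of the list, with the match in capitals.
Nfe2l2: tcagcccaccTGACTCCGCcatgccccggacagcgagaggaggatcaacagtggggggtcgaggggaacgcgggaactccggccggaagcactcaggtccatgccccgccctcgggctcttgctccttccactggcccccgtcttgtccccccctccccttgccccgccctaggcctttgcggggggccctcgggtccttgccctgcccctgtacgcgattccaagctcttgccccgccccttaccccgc

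Lipid and carbon metabolism showed calls in both directions. In the list of lipid uptake, storage and oxidation, 1 of 28 measured members was called higher and 2 lower. Over all genes 1.47% were called higher and 1.18% lower. Lpl, the lipoprotein lipase of macrophages and other cells, read 180.4 and 88.3 CPM in the γδ libraries and 1.08 and 5.31 CPM in the CD4+ libraries (42-fold higher, adjusted p = 0.0296). Acadm, for medium-chain acyl-CoA dehydrogenase, read 0.660 and 0.941 CPM against 26.7 and 19.8 CPM (γδ first; 29.1-fold lower). Of 32 sterol and fatty acid synthesis genes 3 were lower, Insig2, Fads1 and Dhcr7. Dhcr7, the last enzyme of cholesterol synthesis, read 0.248 and 0.470 CPM against 14.1 and 10.3 CPM (34.1-fold lower, adjusted p = 0.0494). Among 35 genes of methionine, choline and one-carbon metabolism, which handle the nutrients that the diet lacks, 1 was lower (Tyms) and 0 higher. Mat2a, which makes S-adenosylmethionine from methionine, read 184 and 159 CPM against 218 and 169.7 CPM (adjusted p = 0.758). Without CD4+ replicate 1 or 3 the calls of Acadm, Insig2, Fads1, Dhcr7 and Tyms, and without replicate 1 that of Lpl, were lost (adjusted p = 0.0733 to 0.194; Tyms 0.0502 to 0.153, also without γδ replicate 2).

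Glycolysis and nuclear respiratory chain genes had 1 call each, both higher in γδ T cells: Slc2a3, for the glucose transporter GLUT3, at 181 and 95.7 CPM against 34.8 and 28.3 CPM (4.38-fold), of 26 measured, and Ndufa10, of complex I, at 125 and 248 CPM against 29.5 and 45.2 CPM (4.99-fold), of 55. Over all genes 1.47% were called higher, so 1 call in lists of this size is no result about the list. With library totals 0 were higher and 1 and 2 lower in these lists. Neither call held without CD4+ replicate 1 or 3, and that of Slc2a3 was also lost without γδ replicate 2 (adjusted p = 0.0907 to 0.303 without a library). Genes of the mitochondrial genome had the highest levels of the genes called higher. The cytochrome oxidase gene mt-Co1 read 25204 and 27827 CPM against 9058 and 10260 CPM and was 2.75-fold higher (adjusted p = 7.76e-05), the NADH dehydrogenase gene mt-Nd2 5.29-fold (adjusted p = 0.000359) and the ribosomal RNA mt-Rnr2 2.17-fold (adjusted p = 1.77e-05). With library totals their log2 fold changes dropped from 1.46, 2.40 and 1.12 to 0.67, 1.62 and 0.31. The nuclear noncoding RNA Malat1 read 4289 and 4756 CPM against 6978 and 8086 CPM, 1.67-fold lower in γδ T cells (adjusted p = 0.0207; 0.0548 without CD4+ replicate 3, 0.0721 in DESeq2 and 0.618 in limma-voom, and lost in 7 alternatives in all).

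Cell cycle genes had 3 of 39 measured members called lower and 0 higher, with a median of -2.11 and -0.82 on the control diet, or 6 lower with library totals. Kif11, the spindle motor, read 0.0825 and 0 CPM in the γδ libraries and 13.4 and 29.6 CPM in the CD4+ libraries, a ratio of 587 (95% counting interval 105 to 23210) for CD4+ over γδ. Cenpf, a kinetochore gene, was at 0 in both γδ libraries and read 6.64 and 19.6 CPM in CD4+ libraries. Mki67, the usual marker of dividing cells, read 60.6 and 130.1 CPM against 105 and 136 CPM (adjusted p = 0.64) and Tubb5 369 and 192 CPM against 201 and 245 CPM (adjusted p = 0.535). Of the 39 members, 12 and 17 had 0 counts in the γδ libraries, against 0 and 0 in the CD4+ libraries. The part of the lower number of genes detected in γδ libraries was not tested. The call of Cenpf was lost without CD4+ replicate 3 (adjusted p = 0.0504).

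Transcripts of macrophages, monocytes and antigen-presenting cells were among the largest differences. Of 18 measured macrophage and Kupffer cell markers 4 were called higher and 0 lower, with a median of 4.77. Their summed level was 2717 and 1881 CPM in the γδ MCD libraries, 19.2 and 43.1 CPM in the CD4+ MCD libraries and 1128 and 2149 CPM in the γδ control libraries. Lyz2, for lysozyme M, read 1616 and 1178 CPM in the γδ libraries and 5.60 and 2.59 CPM in the CD4+ libraries (341-fold, log2 fold change 8.38, SE 0.88, adjusted p = 0.000441). Csf1r, the receptor on which macrophages depend, read 269 and 273 CPM against 2.75 and 4.02 CPM (γδ first; 80.2-fold, adjusted p = 0.000281), and Cd68 216 and 117 CPM against 2.26 and 2.77 CPM (66.2-fold, adjusted p = 0.0275). The fourth was Hmox1. Adgre1 read 163 and 12.2 CPM against 0.0491 and 0.924 CPM (adjusted p = 0.0899). At 0 counts were 2 of the 18 markers in each γδ library and 6 and 4 in the CD4+ libraries.

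The neutrophil and monocyte list had 3 of 14 measured members called higher, Ccr2, Il1b and Clec4e, with sums of 1112 and 778 CPM against 103 and 91.8 CPM. Clec4e, a receptor of activated macrophages, read 51.3 and 107 CPM against 0.344 and 0 CPM (459-fold, adjusted p = 0.0358). Csf3r and S100a9, neutrophil markers, read 92.1 and 85.2 and 2.81 and 68.5 CPM in γδ libraries and were at 0 in CD4+ libraries (adjusted p = 0.0538 and 0.103). The dendritic cell list had 1 of 10 called, Cst3 (308 and 39.2 CPM against 2.31 and 10.9 CPM), with sums of 709 and 217 CPM against 110 and 87.8 CPM. Calls of Cd68, Il1b and Clec4e (CD4+ replicate 1 or 3), of Ccr2 (replicate 3) and of Cst3 (CD4+ replicate 1, γδ replicate 2) were lost without those libraries (adjusted p = 0.0553 to 0.154).

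Class II antigen presentation genes had 5 of 14 measured members called higher and 0 lower, or 3 and 1 with library totals. Over the 14 members 8 log2 fold changes were positive and 6 negative, with a median of 1.51, and over all genes 41.8% were positive. Cd74, the invariant chain that guides class II molecules, read 2346 and 2402 CPM in the γδ libraries and 48 and 56.3 CPM in the CD4+ libraries (45.5-fold, adjusted p = 1.77e-05). H2-Aa and H2-Ab1, the chains of the class II molecule I-A, read 437 and 345 CPM against 3.98 and 16.7 CPM and 339.5 and 466 CPM against 10.9 and 19.4 CPM (37.8-fold and 26.6-fold, adjusted p = 0.00483 and 0.00551). H2-Eb1 read 123 and 48.8 CPM against 0.786 and 3.33 CPM and the protease gene Ctss 242 and 143 CPM against 54.9 and 60.1 CPM. The summed level of the list was 3581 and 3515 CPM in γδ and 142 and 191 CPM in CD4+ libraries. The call of Cd74 was lost in limma-voom (adjusted p = 0.0542), and those of H2-Eb1 and Ctss without CD4+ replicate 1 or 3, or γδ replicate 2 for Ctss (adjusted p = 0.0511 to 0.214).

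Markers of cells other than macrophages, neutrophils, monocytes and dendritic cells gave few calls, apart from the NK and innate lymphoid list. Sums of B and plasma cell markers were 283 and 501 CPM in γδ against 323 and 229 CPM in CD4+ libraries, with 0 of 14 called. NK and innate lymphoid markers summed to 489 and 273 CPM against 144 and 126 CPM. Of these markers 3 of 9, Ncr1 and Tyrobp among them, were called higher, against 1.47% of all genes. Library totals gave 2 higher and 1 lower, and only the wild-type libraries gave 1 higher. Over the 9 markers 6 log2 fold changes were positive and 3 negative. Sinusoidal endothelium markers summed to 238 and 265 CPM against 262 and 305 CPM, with 1 of 17 called, Dnase1l3 (50.3 and 15.2 CPM against 2.6 and 6.6 CPM, adjusted p = 0.0496). That call was lost without CD4+ replicate 1 or 3 or γδ replicate 2 (adjusted p = 0.0591 to 0.231) and in limma-voom (0.386). Mast cell and basophil markers (3 measured, 0 called) summed to 2.31 and 141 CPM against 0.492 and 2.82 CPM, and γδ replicate 4 held nearly all of it as Hdc, at 0 and 138 CPM in the γδ libraries. Hepatocyte markers summed to 447 and 54.6 CPM against 39.7 and 61.2 CPM, of which Ass1 made up 378 and 46.3 and 38 and 59.4 CPM, and 0 of 15 were called. Whether myeloid transcripts came from the sorted γδ T cells or from other cells in the sort was not tested, nor was their part in calls that myeloid cells share, such as Cx3cr1, Ccr2, Il1rn, Hmox1, Zeb2, Fcer1g, Tyrobp and Themis2. In bulk libraries fewer cells of a type and less RNA per cell cannot be told apart.

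**Figure D4:**
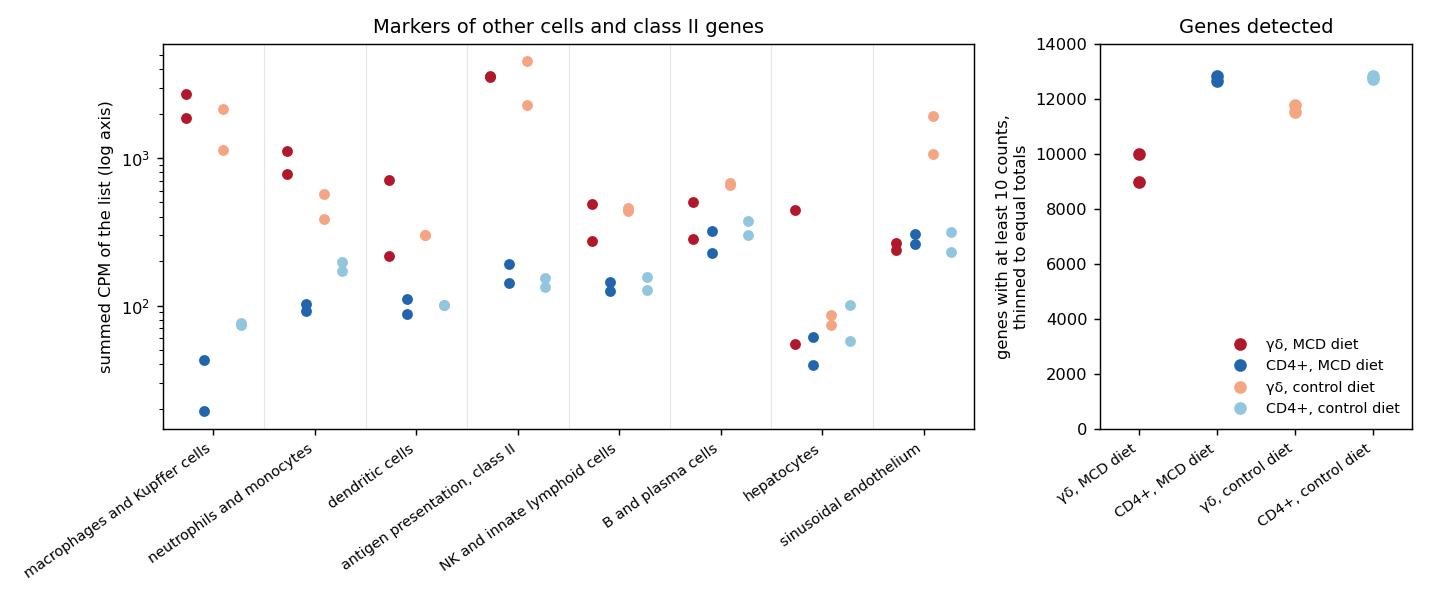
Left, summed TMM-scaled CPM (log axis) of 7 lists of markers of other cells and of class II genes in each of the 8 wild-type libraries. Right, genes with at least 10 counts after thinning every library to 7977220 non-mitochondrial counts, which were fewest in the γδ MCD libraries (8968 and 9985). Macrophage, monocyte and class II sums were higher in γδ than in CD4+ T cells on both diets.

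The part that myeloid transcripts have in the genes with the largest fold changes was not tested. Among the 12 largest higher genes, Tns4, for a focal adhesion tensin, read 55.6 and 426 CPM in the γδ libraries and 0.295 and 0.0462 CPM in the CD4+ libraries (1413-fold, adjusted p = 0.00113). Ptafr, the receptor for platelet-activating factor, read 309.7 and 128 CPM against 0.246 and 0.0924 CPM (γδ first; 1294-fold, adjusted p = 0.00642). The others included Atf3, Cd163l1, Itgb5, Thbd, Cd300ld, Treml4, Hp, F10 and Gstm1, and in Atf3, Itgb5 and Thbd the γδ libraries lay more than 10-fold apart. Itgb5, for integrin β5, read 11.7 and 164 CPM and Thbd, for thrombomodulin, 188 and 3.43 CPM in γδ libraries. Hp, for haptoglobin, read 77.3 and 43.4 CPM and Gstm1, for a glutathione transferase, 84.7 and 28.8 CPM, and both were at 0 in CD4+ libraries. The calls of Itgb5, Thbd, Cd300ld, Treml4, Hp, F10 and Gstm1 were each lost without at least 1 CD4+ library (adjusted p = 0.0607 to 0.146). That of Thbd was also lost without γδ replicate 2.

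Besides Cd4, Ctla4, Izumo1r and Kif11, the 12 largest lower genes were Als2cl, Chst2, Cry2, E4f1, Ksr2, Lrrc45, Zfp773 and Jtb. Als2cl read 0.0825 and 0.0672 CPM in the γδ libraries and 53.6 and 38.8 CPM in the CD4+ libraries, a ratio of 620.3 (95% counting interval 172 to 5126) for CD4+ over γδ. Chst2, a sulfotransferase that helps make selectin ligands, read 0.330 and 0.0672 CPM in the γδ libraries and 67 and 84.9 CPM in the CD4+ libraries, 382-fold lower (adjusted p = 0.00181). The other 6 were at 0 in both γδ libraries and read 22.8 and 5.31 CPM for Jtb and 11.4 and 26.2 CPM for E4f1 in CD4+ libraries. The calls of Als2cl and Chst2 were kept without either CD4+ library but lost with only the 4 MCD libraries (adjusted p = 0.12 and 0.11). Those of Cry2, E4f1, Ksr2, Lrrc45, Zfp773 and Jtb were each lost without at least 1 CD4+ library (adjusted p = 0.0558 to 0.127). Well-expressed lower genes included Ddx5, an RNA helicase gene, at 291 and 367 CPM against 739 and 672 CPM (2.15-fold lower, adjusted p = 0.029; 0.068 to 0.126 without CD4+ replicate 1 or 3).

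**Figure D5:**
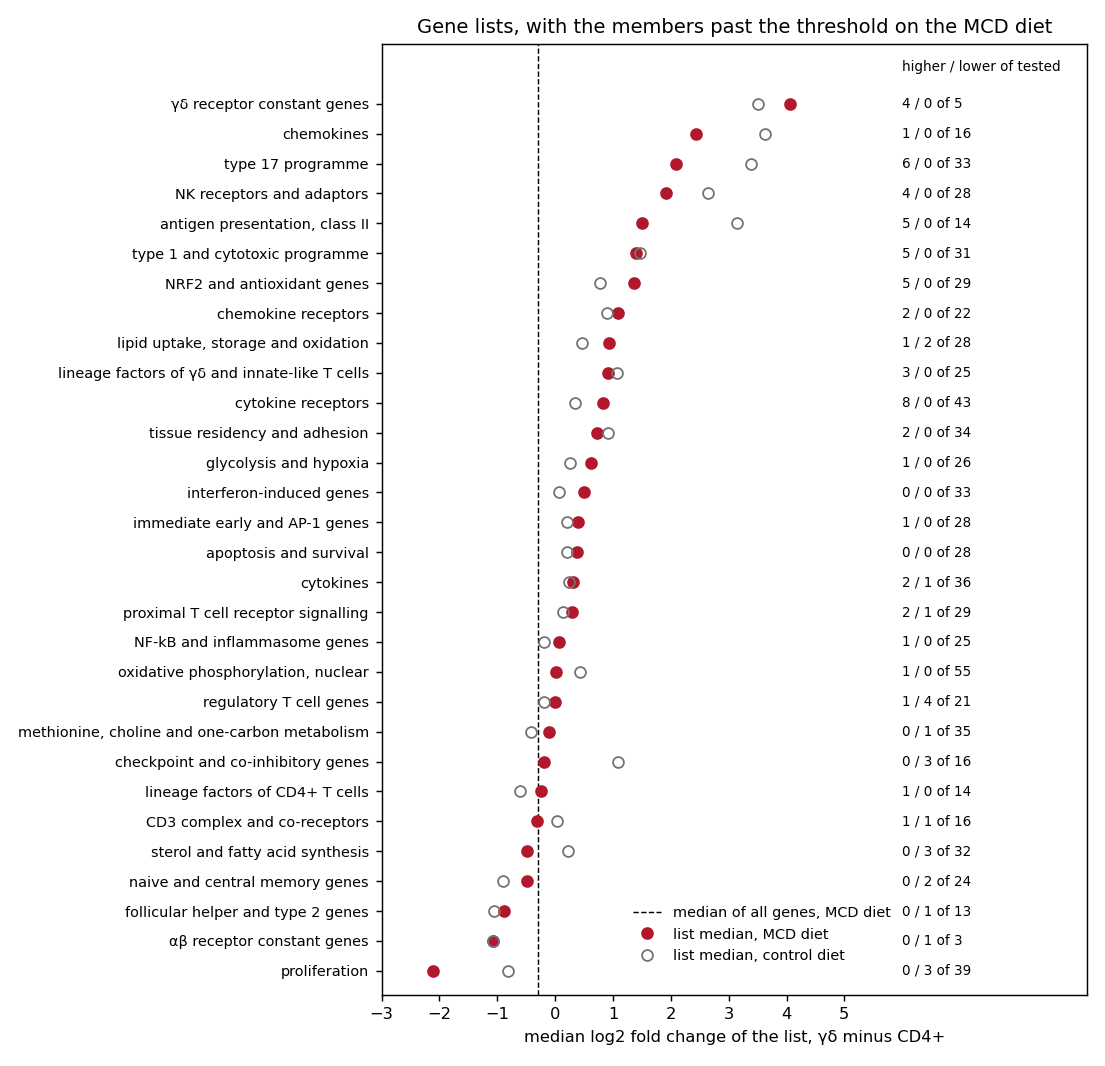
Median log2 fold change (γδ minus CD4+) of 30 gene lists on the MCD diet (filled) and on the control diet (open), with the numbers called higher and lower of those tested on the MCD diet at the right. The dashed line is the median of all genes on the MCD diet (-0.30). Receptor, chemokine, type 17 and NK lists lie highest and proliferation lowest.

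The same cell types on the control diet gave fewer calls. There 106 of 16218 genes (0.654%) were called, 73 higher (0.45%) and 33 lower (0.203%) in γδ T cells, or 41 higher and 72 lower with library totals. The libraries of the 2 diets are separate, but the fit gave them a common spread. Called higher on both diets were 61 genes, 25.5% of those on the MCD and 83.6% of those on the control diet. Called lower on both were 14, 7.33% and 42.4%, and 0 were called in opposite directions. Of the 178 genes called higher only on the MCD diet, 168 had the same sign on the control diet, with medians of 2.93 and 1.43. Of the 177 called lower only on the MCD diet, 126 had the same sign, with medians of -5.87 and -0.85. Over all genes 47% of log2 fold changes were positive on the control diet, the background for both counts.

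The type 17 list had 3 of 33 members called higher on the control diet and 0 lower, with a median of 3.39. There Il18r1 read 594 and 503 CPM against 134 and 134 CPM (γδ replicates 6 and 7, then CD4+ replicates 2 and 3; adjusted p = 0.00167) and Cd163l1 94.5 and 42.8 CPM against 0 and 0.0867 CPM (adjusted p = 0.00547), both called there too. Il23r read 25.3 and 25.7 CPM against 0.0460 and 0.867 CPM (adjusted p = 0.194). Foxp3 read 0 and 0 CPM against 43 and 36.3 CPM (adjusted p = 0.00744) and Ctla4 15 and 0.217 CPM against 60.3 and 100.3 CPM (adjusted p = 0.239). Nfe2l2 read 178 and 295 CPM against 100.5 and 86.7 CPM, Fth1 293 and 256 CPM against 129 and 155 CPM and Sod2 76.3 and 116 CPM against 57.7 and 74.6 CPM (adjusted p = 0.165 to 0.566). Of the 29 NRF2 and antioxidant genes 0 were called on the control diet, and their median was 0.78. Lyz2 read 616 and 1252 CPM against 14.8 and 20.6 CPM and Cd74 1331 and 2993 CPM against 49.8 and 61.1 CPM (adjusted p = 0.00333 and 2.78e-05).

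The test of the difference between diets in the γδ against CD4+ contrast called 0 of 16218 genes (0%) in edgeR, with a lowest adjusted p of 0.132. At an unadjusted p below 0.05 there were 1714, 563 with a more positive and 1151 with a more negative log2 fold change on the MCD diet. DESeq2 called 635 and limma-voom 0, and edgeR called 210 without γδ MCD replicate 2 and 733 without γδ MCD replicate 4. The smallest p-values for more negative differences were those of Cep97, a centrosomal gene (1.49 and 2.96 CPM against 123 and 142 CPM on the MCD diet, 29 and 70.7 CPM against 65.2 and 63 CPM on the control diet, adjusted p = 0.132) and Trmt61a, for a tRNA methyltransferase (0.248 and 0.202 CPM against 9.98 and 22.4 CPM and 35.4 and 91.3 CPM against 6.72 and 13.7 CPM, adjusted p = 0.132). For more positive differences they included those of Spsb1 (6.77 and 9.07 CPM against 1.28 and 1.71 CPM and 0 and 0 CPM against 6.76 and 6.37 CPM, adjusted p = 0.292) and Kmt5a, for a histone H4 methyltransferase (405 and 444 CPM against 72 and 98.3 CPM and 69.6 and 106 CPM against 84.9 and 125 CPM, adjusted p = 0.292). For Nfe2l2 the adjusted p of the difference was 0.343 and for Sod2 0.345.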

How the data were processed

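RNA was extracted from flow-sorted cells with a column kit for small samples and sequenced on an Illumina instrument, per the labels' protocols. The submitters' processing notes name bcl2fastq, STAR, featureCounts and DESeq2 and the build mm10 (GRCm38); versions, annotation and strand setting are not given in the sources used here, so reads of a gene and an overlapping or antisense neighbour cannot be told apart. The authors deposited raw counts per gene, which were the main measure, and FPKM values, which were used only as an alternative on the scales log2(FPKM + 1) and log2(FPKM + 0.1). The log2 fold changes were computed here from the deposited counts. Gene positions came from GENCODE on GRCm38 and promoters from RefSeq on GRCm38.p6.

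Counts of 52459 genes were filtered with edgeR's filterByExpr (minimum count 10, minimum total count 15), which left 16218, scaled by TMM, and fitted with edgeR 4.0.16 in R 4.3.3 (quasi-likelihood test, prior count 2) over all 12 libraries as 6 groups of 2. The 12 libraries shared 1 estimate of the spread, and p-values were adjusted over all 16218 genes by the Benjamini-Hochberg method. SEs were derived from the fold change and its test statistic. Where a group had 0 counts, a fold is a lower bound from a floor of 3 counts per library; with 1 to 3 counts the ratio has a 95% counting interval, and both cover counting error only. DESeq2 1.42.0 and limma 3.58.1 were alternatives, beside other scalings, filters and sets of libraries. The test was tested on simulated counts of 15592 genes for this comparison: it called 1 of 50 genes changed 2-fold, 3 of 50 changed 4-fold, 23 of 50 changed 8-fold and 25 of 50 changed 16-fold, with 2 of 15392 unchanged genes called. The simulation gave every group the same spread for a gene, whereas the real γδ MCD libraries lay further apart than other replicate pairs. Its counts therefore do not measure the error rate of this comparison.

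Genes named are, in each direction, up to 12 called with the largest change and 6 with the highest level (the higher group averaging 5 CPM or more, no overlap between libraries), up to 6 with the smallest p for the difference between diets, and of each list up to 8 called members and 4 others with the highest level, plus the label genes. The comparison, the 30 gene lists and the 11 lists of markers of other cells were chosen with earlier results of these data known. A few genes that these rules name are not reported here, although they are counted in their lists.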

Additional observations from a re-analysis of the deposited data

How the results depend on the processing

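The count of 430 genes called between γδ and CD4+ T cells on the MCD diet became 748 with library totals, 1071 with no filter, 662 with a mean of at least 50 counts, 2853 in DESeq2, 787 in limma-voom, 659 on log2(FPKM + 1), 932 on log2(FPKM + 0.1), 130 with only wild-type libraries and 9 with only the MCD libraries. Leaving out 1 library gave 108 to 2386. On the control diet, 106 became 354 with no filter, 914 in DESeq2, 244 in limma-voom, 287 on log2(FPKM + 1) and 282 on log2(FPKM + 0.1), and leaving out 1 of its own 4 libraries gave 69 to 110, with 69 without CD4+ control replicate 2. Leaving out an MCD library, which enters only the filter, the scaling and the spread there, raised the number of calls. For the difference between diets, 0 became 113 with no filter, 635 in DESeq2 and 3 on log2(FPKM + 0.1), and leaving out 1 library gave 0 to 733. The cause of these shifts was not tested. Of the 104 named genes called on the MCD diet, 0 reversed, 8 were called under every alternative run, 68 were lost without CD4+ replicate 1 or 3, 8 without a γδ library, 49 with only wild-type libraries, 95 with only the MCD libraries and 18 with library totals. No paired analysis was possible because the γδ (2 and 4) and CD4+ (1 and 3) libraries share no replicate number. The title of γδ replicate 2 also carries the code of CD4+ replicate 1, which may tie these libraries, but a single tie gives no block. With 2 libraries a group, a difference that misses the threshold is not shown to be absent.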

Other observations

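Some immune genes differed widely between the γδ MCD libraries. These were chosen after their values were seen. The checkpoint receptor gene Havcr2 (TIM-3) read 544 and 4.57 CPM in γδ replicates 2 and 4, against 12.8 and 27.2 CPM in CD4+ replicates 1 and 3. Zbtb16, for PLZF, the factor of innate-like T cells, read 125 and 1.48 CPM against 18.5 and 9.88 CPM. The interferon-induced chemokine gene Cxcl9 read 136 and 3.63 CPM against 2.21 and 0.416 CPM. These 3 were far higher in γδ replicate 2 than in γδ replicate 4. The chemokine receptor gene Ccr4 read 392 and 30.3 CPM against 68.2 and 137 CPM. Hdc, for the enzyme that makes histamine, lay the other way, at 0 and 138 CPM against 0.344 and 0 CPM. None of these 5 genes was called (adjusted p = 0.0527 to 0.484).

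Further macrophage-associated genes, also chosen after their values were seen, were high in both γδ MCD libraries. Cybb, a subunit of the phagocyte oxidase, read 1316 and 570.2 CPM against 19.1 and 37.6 CPM and the fibronectin gene Fn1 621 and 406 CPM against 1.77 and 0.139 CPM (γδ first). Their adjusted p was 0.000672 and 0.00085 in edgeR's quasi-likelihood test.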
